A study of Mus musculus with 44 samples.

Results

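The peaks described here lie on transcripts of the mitochondrial chromosome in mouse liver. They were chosen by position alone, as every peak whose chromosome was written MT in the 8 deposited lists of N6-methyladenosine (m6A) peaks. There were 42 such peaks among 17573 in all, 21 in the lists called against input RNA and 21 in those called against control IgG. They fell on 7 of the 37 genes of that chromosome, namely mt-Rnr2, ND2, ND4, ND5, ND6, COX1 and CYTB.

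Whole livers came from males of the inbred mouse strain C57Bl/6J, all kept on a high-fat diet with 42% of its energy from fat. The groups received Aroclor1260 (a commercial mixture of highly chlorinated biphenyls), PCB126 (a single dioxin-like congener), Aroclor1260 and PCB126 together, or vehicle as control. Exposure was a single oral one at week 2 of a study of 12 weeks, while the sources used here give neither the doses nor the animals' ages. Each group had 5 m6A immunoprecipitates and 5 input libraries, and 1 IgG library made from pooled material, 44 libraries in all.

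Mitochondrial DNA is transcribed inside the organelle into long RNAs that span many genes on either strand. These are cut into messenger RNAs (mRNAs), ribosomal RNAs (rRNAs) and transfer RNAs (tRNAs), largely at the tRNAs that lie between them. The mRNAs encode core subunits of respiratory complexes I, III and IV and of the ATP synthase, and they carry no introns. Hepatocytes are rich in mitochondria, and mitochondrial transcripts are among the most abundant RNAs of liver. The m6A writer of messenger RNA, the METTL3 and METTL14 complex, works in the nucleus.

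Every list was called by the authors for a whole treatment, so each of its values stands for 5 animals together. No value has an error between mice, and no test across mice could be made, so how far a difference between lists exceeds the variation among mice is unknown. The read depth behind each list is unknown too, and a list's length can vary with it. Against input the lists held 506 peaks after Aroclor1260, 2178 after PCB126, 2284 after the combination and 620 in the control. Against IgG they held 2082, 4129, 3683 and 2091 in the same order. In whole-liver RNA, a peak cannot be assigned to a cell type, and fewer cells of a type cannot be told apart from less RNA per cell. Of 10 hepatocyte genes, Apoa1, Apob, Fgb, Hp, Trf and Ttr had a peak in at least 1 list and Alb, Cps1, Ahsg and Serpina1c in none, while 0 of 15 markers of other liver cells had one.

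Against input, 2 mitochondrial peaks were listed after Aroclor1260, 5 after PCB126, 10 after the combination and 4 in the control. Against IgG the numbers were 1, 4, 12 and 4 in that order. The combination lists thus held 22 of the 42 peaks. In genes, against input 1 of the 7 had a peak after Aroclor1260, 4 after PCB126, 6 after the combination and 2 in the control. Of the 1512 gene identifiers with a peak in any list, 15.9%, 47.9%, 49.6% and 17.7% had one there in the same order. Against IgG 1, 4, 7 and 3 of the 7 genes had a peak, beside 41.7%, 76.7%, 69.1% and 41.5% of identifiers. As a share of all peaks in the list against input, the mitochondrial ones made up 0.395% (Wilson 95% interval 0.109 to 1.43%) after Aroclor1260, 0.230% (0.0981 to 0.536%) after PCB126, 0.438% (0.238 to 0.804%) after the combination and 0.645% (0.251 to 1.65%) in the control. These intervals overlap and cover counting error only. Against IgG the shares were 0.0480% (0.0085 to 0.272%), 0.0969% (0.0377 to 0.249%), 0.326% (0.187 to 0.569%) and 0.191% (0.0744 to 0.491%). The share in the combination lay below the control's against input and above it against IgG, with overlapping intervals in both cases. Against input, the lists ranked in the same order by length and by number of mitochondrial peaks. The combination list there held 10 such peaks and the PCB126 list, of similar length, 5. Against IgG the order differed, since the combination list held more mitochondrial peaks than the longer PCB126 list. The lists against input were also cut to an equal number of peaks, those with the smallest p-values. They then held 2 mitochondrial peaks after Aroclor1260, 3 after PCB126, 3 after the combination and 2 in the control.

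Peak number depends on how the caller splits a stretch, so the bases covered were counted as well. Of the 15365 bases that the mitochondrial genes span, peaks against input covered 2.26% after Aroclor1260, 8.01% after PCB126, 26.9% after the combination and 4.54% in the control. Against IgG they covered 2.89%, 6.68%, 25.3% and 9.97%. With either reference the combination covered the most and Aroclor1260 the least.

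**Figure D1:**
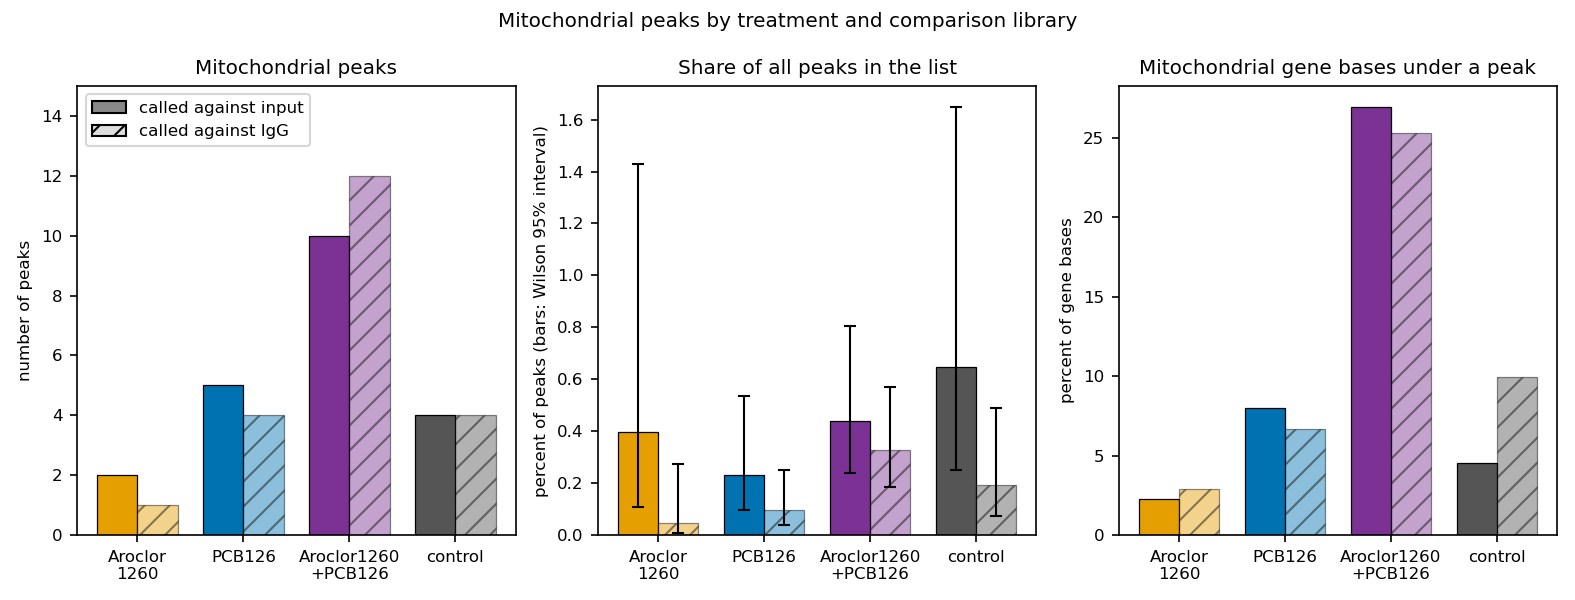
Number of mitochondrial peaks (left), their percent of all peaks in the list with Wilson 95% intervals for counting error (middle) and the percent of mitochondrial gene bases under a peak (right), for each treatment, with solid bars for lists called against input and hatched bars for lists called against IgG. The combination has 10 and 12 peaks over 26.9% and 25.3% of the gene bases, whereas its share of all peaks, 0.438% against input, lies within the interval of the control.

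The 42 peaks fell into 11 separate stretches when overlapping peaks of the same strand were joined. They used 22 distinct pairs of start and end, 12 of which recurred in at least 2 lists and accounted for 32 peaks. All 42 lay in a single block inside a single gene. Of the 13 mRNA genes 6 had a peak, of the 2 rRNA genes 1, and of the 22 tRNA genes 0. The genes with a peak included the 6 longest of the chromosome, from ND5 with 1824 bases to ND2 with 1038 bases. ND6, with 519 bases, was the only shorter one. The 30 genes without a peak were the 22 tRNAs of 59 to 75 bases, the small ribosomal RNA mt-Rnr1 and the mRNAs of ND1, ND3, ND4L, COX2, COX3, ATP6 and ATP8, of 204 to 957 bases. The ATP synthase subunits thus had none in any list. No list held a peak between the COX1 peaks, which ended at 6424 at the latest, and the ND4 peaks, which began at 11052. Whether reads from that stretch also match nuclear copies of mitochondrial sequence was not tested. All coordinates are those of mm10, counted from 1, and the gene bounds are those of RefSeq for GRCm38.p6.

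**Figure D2:**
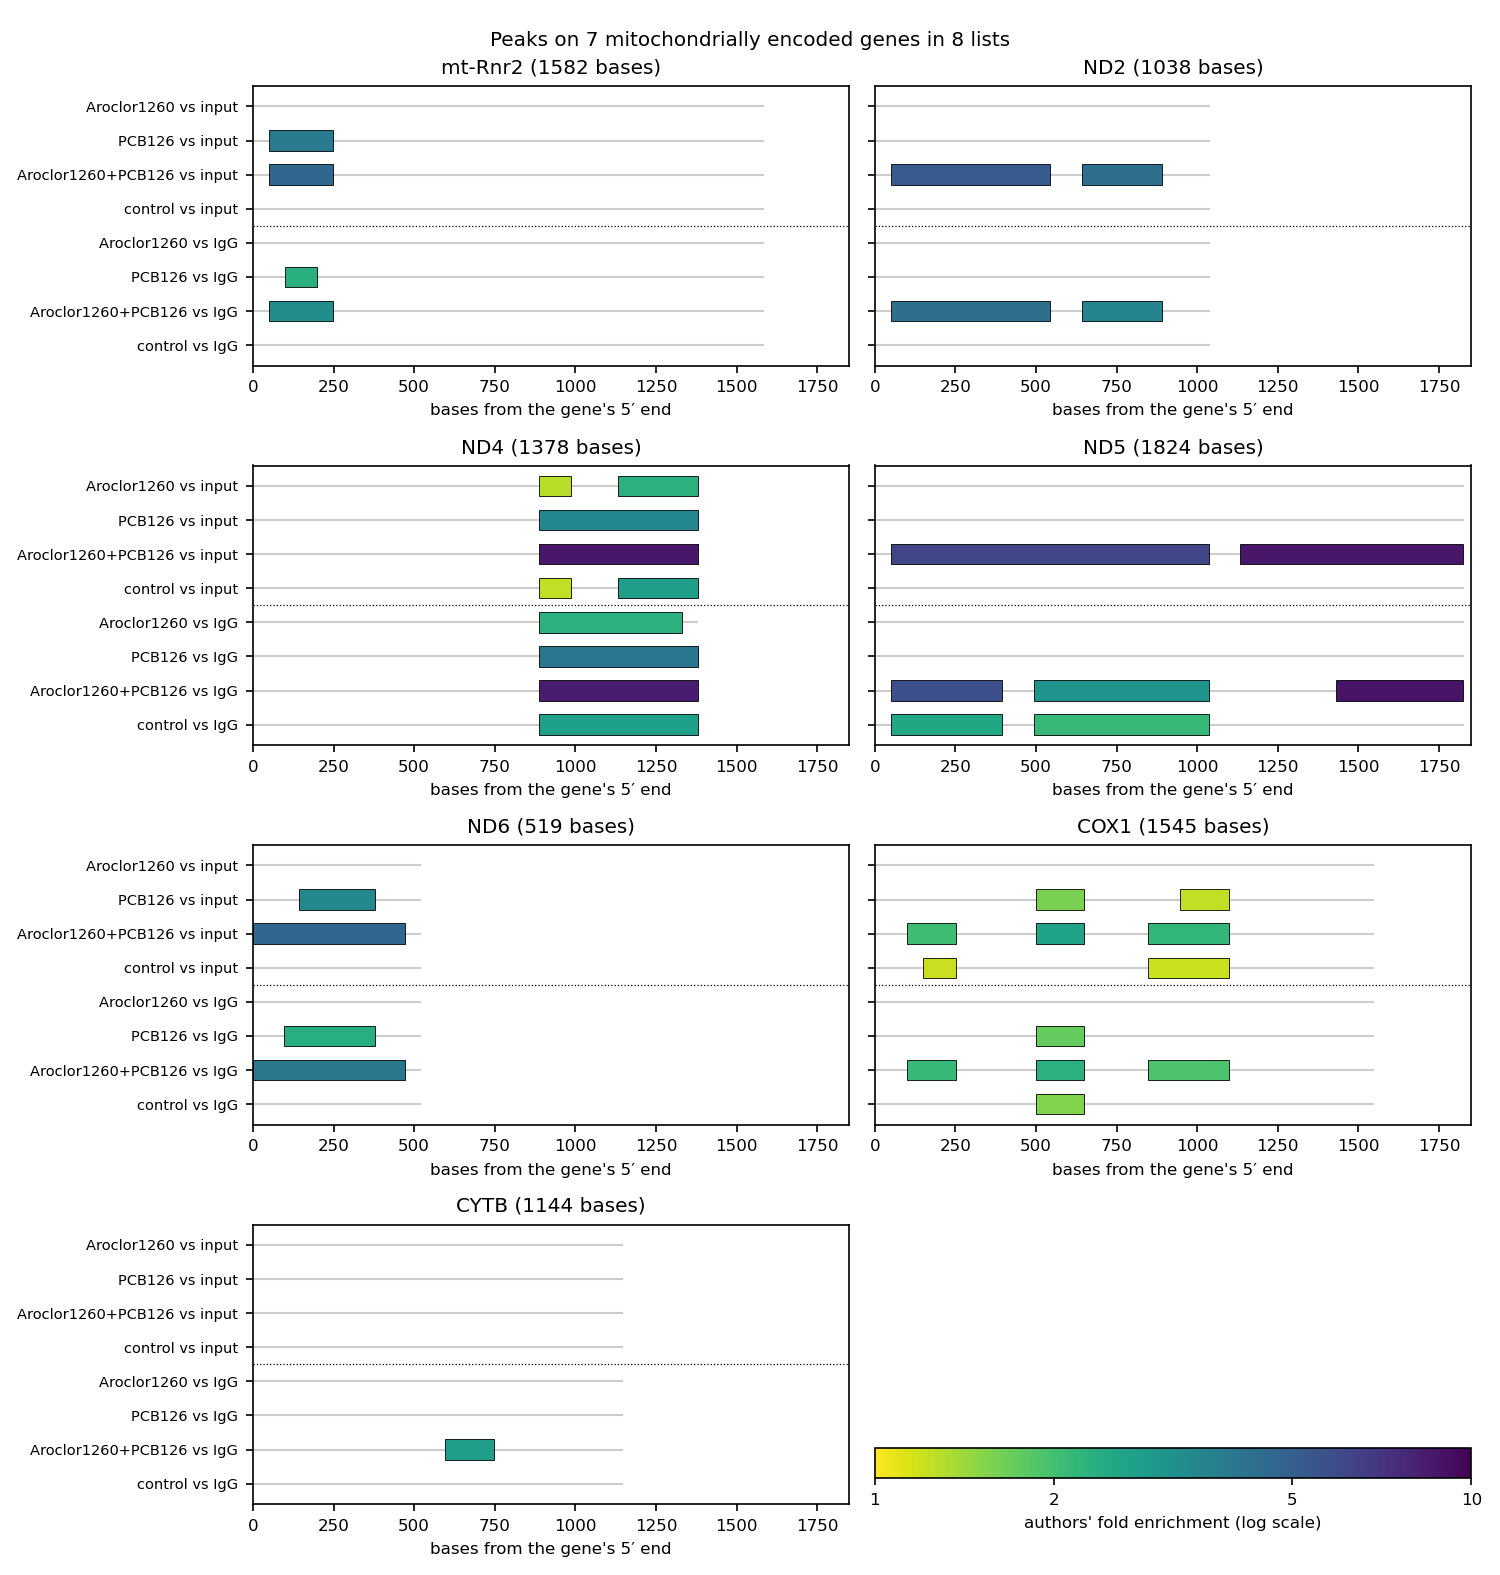
Position of every peak on the 7 mitochondrially encoded genes, in bases from the gene's 5′ end, with 1 line for each of the 8 lists (upper 4 called against input, lower 4 against IgG) and the authors' fold enrichment as colour on a log scale. ND4 has a peak over its last part in all 8 lists, and ND2 and most of ND5 are covered in the combination.

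Complex I, the NADH dehydrogenase through which electrons enter the respiratory chain, accounted for 4 of the 7 genes. ND1, ND3 and ND4L encode further subunits of complex I and had no peak in any list. ND4 encodes one of its membrane subunits that take part in proton pumping, and spans MT from 10167 to 11544. It was the only mitochondrial gene with a peak in all 8 lists, among 146 identifiers of the whole series that were. Its peaks all lay between 11052 and 11544, bases 886 to 1378 of the gene, and so reached its last base. Nothing upstream of base 886 was called in any list. Whether reads can be placed uniquely upstream of it was not tested, so this edge need not mark where m6A begins.

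The form of the ND4 signal differed between lists. Against input, the Aroclor1260 and control lists each split it into the same 2 peaks, from 11052 to 11151 and from 11298 to 11544. Their fold enrichments, the authors' ratio of m6A immunoprecipitate over its reference, were 1.28 and 2.29 after Aroclor1260, and 1.25 and 2.77 in the control. PCB126 and the combination each had a single unbroken peak of 493 bases there, with a fold enrichment of 3.48 after PCB126 and 8.71 after the combination. Against IgG the stretch was unbroken in every list, with fold enrichments of 2.30 after Aroclor1260, 4.04 after PCB126, 8.33 after the combination and 2.73 in the control. The Aroclor1260 peak against IgG stopped at 11495 and the other 3 ran to 11544.

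A fold enrichment ranks peaks within its own list, so each ND4 value is also given by its place there. The combination peak was at rank 117 of 2284 against input, at percentile 94.9 of fold enrichment, and at rank 292 of 3683 against IgG. The PCB126 peak stood at percentile 69.9 against input and 62.9 against IgG. The longer part of the split ND4 signal stood at percentile 55.04 after Aroclor1260 and 59.84 in the control, which is close to the middle of both lists. The false discovery rate that the authors' caller gave both control parts was 0.0309, against 8.51e-07 for both Aroclor1260 parts.

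ND5, a larger pumping subunit of complex I, spans 11742 to 13565 and is separated from ND4 by 3 tRNA genes. In the combination against input it carried 2 peaks, from 11791 to 12777 with a fold enrichment of 6.18 and from 12875 to 13565 with 8.73. Together they covered 92.0% of the gene. Against IgG the combination had 3 narrower peaks, of 5.75, 3.03 and 8.87, the last from 13171 to 13565. The highest ND5 value lay at the 3′ end of the gene with both references, at percentile 94.99 against input and 93.08 against IgG. The input peak behind it had a false discovery rate of 0.0141, the largest of the mitochondrial peaks in that list. It was not kept at a limit of 0.01. The control had no ND5 peak against input but 2 against IgG, from 11791 to 12136 with 2.53 and from 12235 to 12777 with 2.13. These had the same bounds as the first 2 combination peaks against IgG. Aroclor1260 and PCB126 had none with either reference.

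ND2, a further membrane subunit of complex I, spans 3914 to 4951. It had peaks in the combination and in no other treatment, at the same 2 places with both references. The first ran from 3963 to 4457, with a fold enrichment of 5.19 against input and 4.37 against IgG. The second ran from 4556 to 4803, with 4.37 against input and 3.55 against IgG. Together they covered 71.6% of the gene and left its last 148 bases free.

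ND6 is the one mitochondrial mRNA encoded on the opposite strand to the others, and it codes for a further membrane subunit of complex I. It spans 13552 to 14070 and shares 14 bases with the end of ND5. Its peaks were the only mitochondrial ones listed on the minus strand, 4 of 42 (9.52%), beside 4.77% of the 17531 nuclear peaks. The 4 come from a single gene in 4 lists, so the 2 shares show no excess on that strand. After PCB126 the peak ran from 13693 to 13929 against input with a fold enrichment of 3.37, and from 13693 to 13976 against IgG with 2.33. After the combination it ran from 13599 to 14070 with both references, with 4.70 against input and 3.98 against IgG, and covered 90.9% of the gene. Neither Aroclor1260 nor control liver had an ND6 peak. Whether reads were counted by strand is not given in the sources used here, so ND6 and RNA antisense to it cannot be told apart.

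COX1 encodes the catalytic core of cytochrome c oxidase, complex IV, and spans 5328 to 6872. It had 12 peaks in 6 lists, at 3 places that recurred, from 5428 to 5577, from 5826 to 5975 and from 6175 to 6424. Against input, PCB126 had peaks at the second and the third with fold enrichments of 1.59 and 1.25, and the combination had all 3 with 2.05, 2.62 and 2.20. The control had the first and the third with 1.21 and 1.20. Against IgG, PCB126 had only the second with 1.72, the combination all 3 with 2.14, 2.30 and 1.92, and the control only the second with 1.55. Aroclor1260 liver had no COX1 peak with either reference. The part of COX1 after base 1097 had no peak in any list, and unique placement of reads there was not tested either.

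COX1 paired the smallest p-values of the mitochondrial peaks with low enrichments. Low values were not confined to COX1, since the shorter ND4 part against input had 1.25 in the control and 1.28 after Aroclor1260. The authors' p-value was listed at 0 for 11 of the 12 COX1 peaks and for no other mitochondrial peak. Across the series 1024 peaks had such a p-value. By fold enrichment, 11 of the 12 stood below the middle of their list, the control ones at percentiles 2.74 and 2.26 against input. The exception was the middle peak of the combination against input, at percentile 56.7.

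CYTB, the cytochrome b of complex III, had a single peak in the series. It lay in the combination against IgG, from 14741 to 14890, with a fold enrichment of 2.78 and a false discovery rate of 0.0234, the largest of the mitochondrial peaks against IgG. No list against input held it.

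The large ribosomal RNA mt-Rnr2, the RNA core of the large subunit of the mitochondrial ribosome, spans 1094 to 2675. It had 4 peaks, all near its 5′ end. After PCB126 the peak ran from 1143 to 1341 against input with a fold enrichment of 3.92, and from 1193 to 1292 against IgG with 2.31. After the combination it ran from 1143 to 1341 with both references, with 4.70 against input and 3.26 against IgG. It was absent after Aroclor1260 and in the control, and the other ribosomal RNA, mt-Rnr1, had no peak in any list. Whether rRNA was removed from the libraries is not given in the sources used here.

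**Figure D3:**
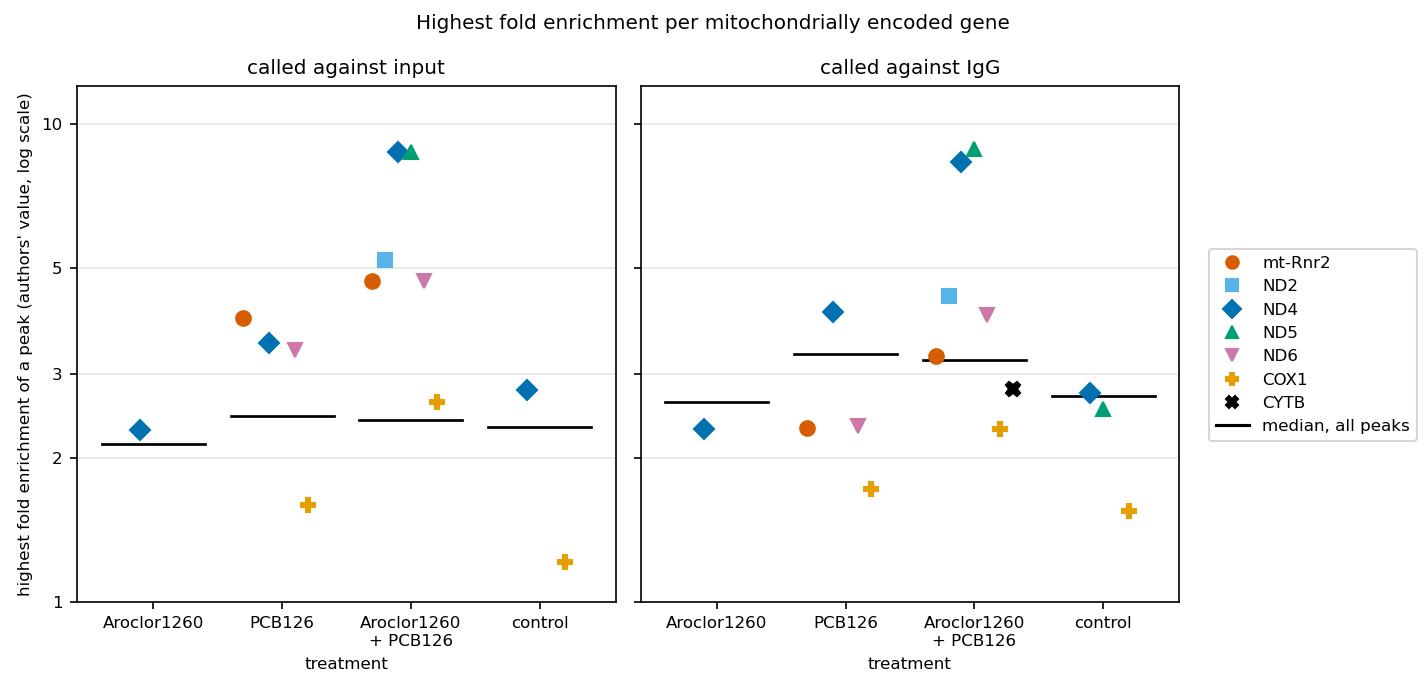
Highest fold enrichment of any peak on each mitochondrially encoded gene (authors' value, log axis) by treatment, for lists called against input (left) and IgG (right), with the median of all peaks of the list as a black line. ND4 and ND5 in the combination are the highest with both references, between 8.33 and 8.87, and COX1 is the lowest gene in every list that holds it.

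**Figure D4:**
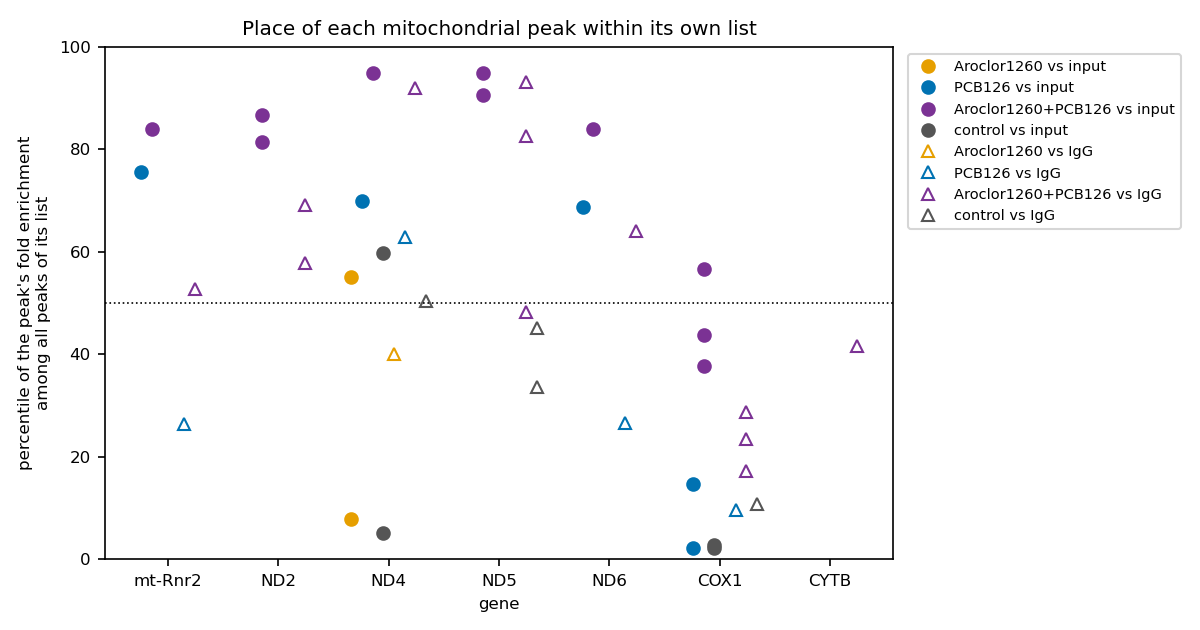
Percentile of each mitochondrial peak's fold enrichment among all peaks of its own list, by gene, with filled circles for lists called against input and open triangles for lists called against IgG. The dotted line marks the middle of the list, and 11 of 12 COX1 peaks lie under it.

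The mitochondrial peaks were then compared with all peaks of their lists. Against input their median fold enrichment was 1.79 after Aroclor1260 (2 peaks), beside 2.14 over the whole list. It was 3.37 after PCB126 (5 peaks) beside 2.45, 4.70 after the combination (10 peaks) beside 2.40, and 1.23 in the control (4 peaks) beside 2.32. In the combination 8 of the 10 peaks stood above the median of their list, and in the control 1 of 4. With IgG as reference, 7 of 12 did in the combination and 1 of 4 in the control. Against IgG the mitochondrial medians were 2.30, 2.32, 3.41 and 2.33 in the order Aroclor1260, PCB126, combination and control, beside 2.62, 3.30, 3.20 and 2.70 over the lists. The higher median of the PCB126 peaks thus held against input only. The median width of mitochondrial peaks was 361 bases in the combination against input, beside a median exonic width of 200 bases for its nuclear peaks. After Aroclor1260 it was 173.5 bases beside 200, after PCB126 199 beside 201 and in the control 174 beside 201. Against IgG the order was another one, with 444 bases beside 198 after Aroclor1260 (1 peak), 217 beside 199 after PCB126, 298 beside 198 after the combination and 419.5 beside 151 in the control. Wide mitochondrial peaks were thus not particular to the combination.

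Exposed livers were set against control livers gene by gene. A gene was gained when the exposed list held a peak on it and the control list none, and lost in the opposite case. All comparisons use the same control lists. A gene enters these counts through having a peak in some list, so they describe the 7 genes and support no claim about them.

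Aroclor1260 gained 0 of the 7 against input, where 4.70% of the 1512 identifiers with a peak in any list were gained. It also gained 0 against IgG, beside 12.7%, and 0 with both references, beside 0.992%. It lost COX1, 1 of 7, where 6.48% of identifiers were lost. Against IgG it lost COX1 and ND5, where 12.4% were lost. COX1 was therefore lost with both references, as were 1.72% of identifiers, from control peaks with fold enrichments of only 1.20 to 1.55. With a fold enrichment of at least 2 required, no COX1 peak was left in the control against input and 0 genes were lost.

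PCB126 gained mt-Rnr2 and ND6 with each reference, 2 of 7 (28.6%), beside 31.5% of all identifiers against input and 40.0% against IgG. Counted with both references these same genes were gained, beside 14.9% of identifiers. It lost 0 of the 7 against input, beside 1.32%, ND5 against IgG, beside 4.83%, and 0 with both references, beside 0.132%. The share gained with a given reference was thus near that of all genes in these lists.

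The combination gained mt-Rnr2, ND2, ND5 and ND6 against input, 4 of 7 (57.1%), beside 33.3% of all identifiers. Against IgG it gained mt-Rnr2, ND2, ND6 and CYTB, again beside 33.3%. Those gained with both references were mt-Rnr2, ND2 and ND6, beside 14.0% of identifiers. It lost 0 of the 7 against input, beside 1.39% of identifiers, 0 against IgG, beside 5.62%, and 0 with both references, beside 0.331%. ND5 was not gained against IgG because the control list held it there.

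These gains were not kept under every limit on the lists. With a fold enrichment of at least 2, PCB126 gained the same 2 genes and the combination 5, COX1 being added. With a false discovery rate of at most 0.01, the control list against input held no ND4 peak, so ND4 counted as gained after every exposure. When each list against input was instead reduced to the 506 peaks with the smallest p-values, which changes its length and its p-value limit together, the combination gained 0 mitochondrial genes, PCB126 gained mt-Rnr2 alone and Aroclor1260 gained ND4. The combination list then held 3 mitochondrial peaks, all on COX1, and the control list held 2, also on COX1. The PCB126 list held 3, on COX1 and mt-Rnr2.

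Overlap between treatments was counted against input. It was not counted for nuclear peaks, here or between references, so the counts have no share over all peaks beside them and only describe the mitochondrial ones. Of the 4 control peaks, 2 overlapped one of the Aroclor1260 list, 3 one of the PCB126 list and 4 one of the combination list. All 5 PCB126 peaks overlapped a combination peak, 3 of them with identical bounds. Of the 10 combination peaks, 5 overlapped a PCB126 peak, 1 an Aroclor1260 peak and 3 a control peak. The PCB126 peaks at mt-Rnr2 and ND4 had the same bounds in the combination, and the ND6 peak lay inside the wider combination one.

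The references were also set against each other within a treatment. All 10 combination peaks against input overlapped one against IgG, 8 with identical bounds, and 11 of the 12 against IgG overlapped one against input. After PCB126, 4 of 5 peaks against input were found against IgG, the exception being the third COX1 place, and after Aroclor1260 both were. In the control 2 of 4 were found, both on ND4, and of its 4 peaks against IgG only 1 was found against input. The control calls on COX1 thus rested on different places with each reference, and its ND5 calls on IgG alone.

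Genes of the nucleus that serve the same organelle were counted for comparison. Of 89 nuclear genes for subunits of the respiratory chain and ATP synthase, 9 had a peak in at least 1 list. Against input 1 had one after Aroclor1260, 4 after PCB126, 6 after the combination and 1 in the control. Against IgG the counts were 8, 7, 5 and 7. Over all identifiers with a peak in any list, 15.9%, 47.9%, 49.6% and 17.7% had one against input in the same order, and 41.7%, 76.7%, 69.1% and 41.5% against IgG, so the input counts ran the same way as those of the whole lists. These percentages are of identifiers with a peak in some list, so they compare with the 9 genes and not with the 89. Ndufc2, an accessory subunit of complex I, was the only one present in all 8 lists, with highest fold enrichments of 1.64 after Aroclor1260, 2.26 after PCB126, 3.50 after the combination and 1.53 in the control against input. Ndufv3, a further complex I subunit, reached 2.25 after PCB126 and 2.50 after the combination against input. Atp5d, a subunit of the ATP synthase, reached 1.61 and 2.42 in the same lists. Ndufb9, also of complex I, had 1.88 after the combination.

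Mitochondrial ribosomal proteins are made from nuclear mRNAs and assemble around mt-Rnr1 and mt-Rnr2. Of 78 such genes, 12 had a peak in at least 1 list. Against input 0 had one after Aroclor1260, 5 after PCB126, 5 after the combination and 0 in the control. Against IgG 3, 9, 8 and 5 did. These counts, too, were higher in the PCB126 and combination lists, as were the shares of all identifiers just given. The strongest against input was at Mrps34, with 6.97 after PCB126 and 8.56 after the combination, where identifiers on both strands carried overlapping peaks of equal fold enrichment. Mrpl12 reached 4.52 after PCB126 and 3.21 after the combination, Mrps7 reached 3.62 after each, and Mrpl9 reached 3.00 and 2.10. Among 45 factors of mitochondrial RNA synthesis, processing and modification, 4 had a peak in at least 1 list. Only Mrm3, a methyltransferase of mitochondrial ribosomal RNA, had one against input, with 2 peaks up to 4.40 after PCB126. Against IgG 1 of the factors had a peak after Aroclor1260, 2 after PCB126, 2 after the combination and 1 in the control. Twnk, the mitochondrial DNA helicase, had highest fold enrichments there of 8.60 after Aroclor1260, 15.2 after PCB126 and 5.00 in the control, and no peak after the combination. Mrm3 reached 5.00 after PCB126. The combination list held Mtpap, the mitochondrial poly(A) polymerase, with 7.6 and Hsd17b10, a subunit of mitochondrial RNase P, with 1.40. Trmt10c and Trmt61b, which methylate adenosines of mitochondrial RNA in human cells, had no peak in any list; they were named after the counts were seen.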

How the data were processed

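Fragments carrying m6A were pulled down from liver RNA by antibody (MeRIP). The submitters' processing notes name build mm10 and, among the tools, BWA 0.7.17, Trimmomatic and bcl2fastq 2.20.0.422. The deposited lists are titled as MeTPeak output, and the caller's version, settings and annotation, and how it treated reads that also match nuclear copies of mitochondrial sequence, are not given in the sources used. Per the file headers, each deposited peak has a p-value, the log10 of its false discovery rate (at most 0.0490) and a fold enrichment. The last is a ratio on a linear scale, of m6A over input or IgG. These are the authors' values for single peaks.

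With Python 3.11.15 and pandas 2.3.3, 1 was added to each start, since block sizes equal end minus start. Identifiers were named by position, after the RefSeq gene (GRCm38.p6) holding at least 80% of their peak bases, and where several did, of the only protein-coding one. This named all 7 mitochondrial identifiers and 1395 of 1512 in all. Peaks overlapped when they shared at least 1 bp on the same strand. Overlap, naming and interval steps were tested on simulated data. All 7 genes are named, and of each nuclear gene list up to 4 members with the highest fold against input. Factors of mitochondrial RNA with a peak against IgG alone were named after their values were seen. Ndufaf assembly factors were left out of the respiratory chain list. The members and lists were chosen with earlier results of these data known. Alternatives tried were IgG as reference, a false discovery rate of at most 0.01, a fold of at least 2, an equal number of peaks per list, other overlap rules and the median fold per gene. No mitochondrial sequence was used here, so base composition and motifs were not analysed.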

Additional observations from a re-analysis of the deposited data

How the results depend on the processing

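No paired analysis was possible because each list was called over a whole treatment and carries no value for a replicate, so leaving out a replicate was not run either. With IgG as reference, Aroclor1260 had 1 mitochondrial peak, the shares of all peaks were 0.0480% after Aroclor1260, 0.0969% after PCB126 and 0.191% in the control, 2 genes were lost with Aroclor1260 and 1 with PCB126, and 1 control peak was found after Aroclor1260. With a false discovery rate of at most 0.01, the control had 2 peaks on 1 gene, COX1, and Aroclor1260 gained 1, ND4. With a fold of at least 2, Aroclor1260 had 1 peak, PCB126 3 and the control 1 on 1 gene, and Aroclor1260 lost 0. With every list held to 506 peaks, PCB126 had 3 peaks on 2 genes (0.593% of the list) and the combination 3 on 1 gene, both with 0% on the minus strand, and the control had 2 on 1 gene. Aroclor1260 then gained 1 gene, PCB126 1 and the combination 0. With a reciprocal overlap of at least 50%, 0 Aroclor1260 and 1 control peak against input were found against IgG. The stricter limits and the fixed length leave fewer peaks by construction, and the cause of the difference between references was not tested. The other 76 of 105 alternative counts and shares moved by no more than 1.5 times, or within their interval. Of 26 alternative fold values 1 moved by over 1.5 times, that of mt-Rnr2 after PCB126, 2.31 against IgG beside 3.92 against input. Depth is unknown, so an absent peak does not show an absent mark.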

Other observations

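The bounds of the mitochondrial peaks met gene ends unequally. Of the 42 peaks, 11 ended on the last coordinate of their RefSeq gene, which is the 3′ end except on ND6, and 0 started on the first. Among 11464 single-block nuclear peaks at named genes, 56 ended on the last coordinate and 0 started on the first. Within 48 bases of these coordinates, 11 mitochondrial and 110 nuclear peaks ended, and 2 and 56 started. The caller's annotation is not given, and its gene ends may differ from those of RefSeq, so exact matches need not compare between the 2 kinds. On ND2, ND5 and mt-Rnr2 the earliest peak began at base 50 of the gene, and on the minus-strand gene ND6 the widest peak left free the 47 bases at its 3′ end, which is its low-coordinate side. The first bases of a plus-strand gene were thus under no mitochondrial peak in any list.

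In the Aroclor1260 and control lists against input, both ND4 peaks carried the same p-value although their fold enrichments differed. Neighbouring peaks on ND2 and ND5 had different p-values. On ND4 both parts had 7.2e-08 after Aroclor1260, and both had 0.0048 in the control. The p-values of neighbouring mitochondrial peaks on ND4 in these lists are therefore not separate measurements.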
